A study of Mus musculus with 18 samples.

Results

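Loss of Creld1 was compared with its control across every library of this study: 18 RNA-seq libraries of mouse naive CD4+ T cells, 9 from Creld1 conditional knockout (cKO) mice and 9 from control mice. The members are all 18 libraries, and the quantity is the cKO minus control difference of each gene, averaged over 3 conditions (freshly isolated, cultured without stimulation, cultured with stimulation) with 3 libraries of each genotype in each condition. A gene entered when its deposited value reached 3.32 on the log2 scale (10 on the linear scale) in at least 3 libraries, which 10877 of 15137 genes (71.9%) did. The question is which differences kept their sign and their size in all 3 conditions.

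Creld1 encodes a membrane protein of the endoplasmic reticulum with epidermal growth factor-like repeats, known for its link to heart septal defects and for promoting calcineurin signalling to NFAT transcription factors. In CD4+ T cells, calcineurin and NFAT carry the signal of the T cell receptor to genes such as cytokines and their receptors. Naive CD4+ T cells are resting cells that leave quiescence when the receptor is engaged together with CD28, so freshly isolated, rested and activated cells differ widely in what they transcribe.

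All animals had the C57BL/6J background, and in the cKO the Creld1 deletion was driven by Cre recombinase under CD4 control (CD4-Cre), which acts from the thymocyte stage and also in CD8 T cells. The control genotype is labelled Control only. The labels state neither whether control animals carried Cre or the conditional allele nor which part of Creld1 was deleted. Splenic cells were sorted as CD3+, CD4+, CD25-, CD62L+ and CD44-. The 6 groups of 3 libraries were freshly isolated control cells, freshly isolated cKO cells, control and cKO cells kept 8 h in culture without stimulation, and control and cKO cells kept 8 h with antibodies to CD3 and CD28 at 1 µg/ml. The labels give no age and 1 mouse number for all libraries of a group, so separate animals are not stated and a p-value here reflects how far these libraries scatter, which can be technical.

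The linear values of the libraries summed to between 6782465 and 7419367, no pair of libraries was identical, and no read depth is stated. The T cell genes Cd3e and Cd4 had log2 values of at least 11.28 and 12.45 in every library, while Cd8a of CD8 T cells, Ncr1 of natural killer cells, Csf1r of macrophages and Hba-a2 of red cells stayed below the minimum. Other markers did not: 6 of 16 CD8 T and natural killer cell markers reached it, among them Cd8b1 with values from 6.14 to 6.80 and Klrd1 with a mean of 7.82. So did 5 of 11 myeloid markers, among them Itgam with a mean of 4.47 and Ctss with the highest mean of that list, 10.0. Ctss therefore weighs most in the myeloid sum. The summed linear level of the CD8 T and natural killer cell markers ranged from 523 to 623 in control and from 559 to 629 in cKO libraries, and that of the myeloid markers from 1098 to 1368 and from 1120 to 1363. Their part in the results was not tested. The summed linear level of 14 B cell markers ranged from 92.6 to 117 in control and from 81.5 to 119 in cKO libraries, and that of 13 regulatory T cell markers from 1441 to 2052 and from 1284 to 2137, so all these sums overlapped between genotypes. For the GC slope of a library, each gene's mean over the 18 libraries was subtracted from its log2 value. The slope is the change in this deviation per standard deviation of transcript GC content, so it is relative to the average library. The slope lay between -0.16 and 0.24 in control and between -0.31 and 0.16 in cKO libraries, and among fresh cells control replicate 1 (-0.16) and cKO replicate 3 (0.16) stood apart from the other libraries of their groups. The same 2 libraries stood apart in the share of mitochondrially encoded transcripts, with 5.03% against 3.63% and 3.66% in control and 3.18% against 5.05% and 5.74% in cKO libraries. Their share of the 50 highest genes was 15.1% against 13.5% and 14.1%, and 13.3% against 15.4% and 16.5%. The genotype difference in GC slope was -0.11 in fresh, -0.28 in unstimulated and 0.09 in stimulated cells. The mean of the 3, -0.10, did not pass an exact permutation test within conditions (two-sided p = 0.183, adjusted p = 0.281 over 5 library measures). Nor did the mitochondrial, top-50 or ribosomal share (adjusted p = 0.281 for each). These means join conditions of opposite sign. In unstimulated cells alone the GC slope was 0.06, 0.15 and 0.24 in control and -0.13, -0.07 and -0.19 in cKO libraries, without overlap. The mitochondrial, top-50 and ribosomal shares did not overlap there either. In fresh and in stimulated cells each of these measures overlapped between genotypes.

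The library numbers in the titles form 3 runs, each with 1 library of all 6 groups, and the replicate numbers used here follow these runs. The labels do not say whether libraries of a run share an animal, a day or nothing. In some genes the 3 libraries of 1 genotype and run kept together through all conditions, which makes 6 sets of 3. Over all genes a median of 41.3% of the squared deviation from the group means lay between these sets, where independent libraries would give 33.3%. For genes that follow the sets, 9 libraries a side count each set 3 times, and agreement between conditions is partly agreement of a set with itself. An added fit therefore used 1 value per genotype and run, the mean over the 3 conditions, with 3 values a side. It held no term for the run, although each run holds both genotypes, so it ignores what they share. Deviations of libraries of the same run had a median correlation of 0.353 between genotypes and 0.128 within a genotype. With GC slope removed these medians were -0.0211 and 0.0528. A fit of these values paired by run was not made.

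Creld1 itself (chr6:113483297-113493343, plus strand, GRCm38) was lower in the cKO in each condition. Its log2 values in fresh cells were 4.33, 4.85 and 4.57 in control and 4.19, 3.70 and 4.40 in cKO libraries. In unstimulated culture they were 4.81, 4.88 and 5.40 in control and 3.95, 4.33 and 3.82 in cKO, and in stimulated culture 4.41, 5.10 and 4.71 against 4.14, 4.62 and 4.37. The genotypes were separated in unstimulated cells only, and each of the 9 cKO libraries lay below the control mean of its condition. The averaged difference was -0.62 ± 0.13 (SE, n = 9 a side), or 1.53-fold lower, and passed the exact permutation test as a single value (two-sided p = 0.00175 over 8000 arrangements, adjusted p = 0.00875 over the 5 measures). With 1 value per genotype and run the 3 cKO values (4.10, 4.22 and 4.20) lay below the 3 control values (4.52, 4.95 and 4.89), at an exact p of 0.1, the smallest that 3 against 3 can give. Across all genes, limma gave Creld1 an adjusted p of 0.344 and the 10th smallest p. With each library's GC slope in the model its average was -0.43 (adjusted p = 0.104, limma). The GC content of its transcript is 58.2%, against a median of 49.2% over all genes tested. Creld1 was still measured in every cKO library, and in bulk libraries fewer cells with a transcript and less transcript per cell cannot be told apart.

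Of 10877 genes, 2 passed the test of the averaged difference (0.0184%; limma, Benjamini-Hochberg adjusted p under 0.05), and both were higher in the cKO. With 1 value per genotype and run, 0 genes passed (0.0%; limma), with 478 at an unadjusted p under 0.05. The count and its direction also turned on single libraries: without cKO fresh replicate 3 there were 427 higher and 1186 lower, without both fresh libraries apart in GC slope 1677 and 2349, and with library weights 2404 and 2769. The 2 genes were Sall1, a spalt-family zinc-finger repressor known from kidney and limb development and from microglia, and Zfp488, a zinc-finger protein related to Prdm8 and known from oligodendrocytes. At an unadjusted p under 0.05 there were 901 genes, 367 higher and 534 lower, of which 419 (46.5%) had one sign in all 3 conditions.

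The promoters of these 2 genes are shown because they are the only ones past the test, with the core letters of a TCF/LEF motif in capitals (CTTTGA, which reads TCAAAG on the other strand). The sequences are RefSeq's, 5′ to 3′ on the gene's own strand from 250 bases before to 50 bases after the annotated start in GRCm38.p6, and both genes lie on the minus strand: Sall1 at chr8:89044113-89044412 and Zfp488 at chr14:33978715-33979014.
Sall1: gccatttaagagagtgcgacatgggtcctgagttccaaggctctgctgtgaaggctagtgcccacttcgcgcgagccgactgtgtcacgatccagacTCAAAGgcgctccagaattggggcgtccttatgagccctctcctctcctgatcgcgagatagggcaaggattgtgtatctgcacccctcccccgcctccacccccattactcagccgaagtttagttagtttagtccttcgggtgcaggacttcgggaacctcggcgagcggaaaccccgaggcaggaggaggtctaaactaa
Zfp488: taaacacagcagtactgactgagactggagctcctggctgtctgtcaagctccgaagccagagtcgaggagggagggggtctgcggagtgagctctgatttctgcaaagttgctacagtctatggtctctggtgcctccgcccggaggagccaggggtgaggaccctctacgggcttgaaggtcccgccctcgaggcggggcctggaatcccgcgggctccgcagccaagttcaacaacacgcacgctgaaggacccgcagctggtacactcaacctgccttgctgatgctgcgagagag
The Sall1 window held 1 match to the TCF/LEF letters, which 16.0% of 32851 promoters of the same length hold on either strand. Neither window held the NFAT core TGGAAA (held by 21.4% of promoters) or the AP-1 letters TGANTCA (7.81%). GC content was 57.3% in the Sall1 and 61.3% in the Zfp488 window against a median of 52.7%, with 18 and 16 CG pairs.

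Sall1, a protein-coding gene at chr8:89027235-89044162 on the minus strand (GRCm38), was separated by genotype in every condition. In fresh cells its log2 values were 3.43, 3.00 and 2.93 in control and 4.83, 5.35 and 5.53 in cKO libraries. In unstimulated cells they were 3.12, 2.88 and 3.16 against 4.02, 3.86 and 4.69, and in stimulated cells 3.13, 2.88 and 3.07 against 3.76, 3.87 and 4.06. All 9 cKO libraries lay above all 9 control libraries, and Sall1 was the only tested gene of which this held in either direction. The averaged difference was 1.37 ± 0.12 (SE; 95% interval 1.11 to 1.64), a 2.59-fold higher value in the cKO, with an adjusted p of 9.74e-05 (limma). Of its squared deviation 68.8% lay between the sets of a genotype and a run, so the 9 libraries a side are not independent values. With 1 value per genotype and run the same difference had an SE of 0.16 and an adjusted p of 0.272 (limma; 2.5e-05 before adjustment, the smallest of all genes).

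The Sall1 difference was estimated highest in fresh cells, and the test between conditions did not pass. It was 2.11 in fresh, 1.14 in unstimulated and 0.87 in stimulated cells (SE 0.22 each), 4.32-fold, 2.20-fold and 1.83-fold. The stimulated difference was 1.24 smaller than the fresh one (unadjusted 95% interval 0.59 to 1.89). The limma F test of any difference between conditions gave Sall1 an adjusted p of 0.378 over all genes (0.00237 before adjustment). Control values stayed between 2.88 and 3.43, and the cKO values were highest in fresh cells. Only 1 of the 9 control libraries reached the minimum, so Sall1 entered through its cKO libraries; without the minimum its adjusted p was 7.61e-05, and with 5 added to each linear value its difference was 1.01.

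Zfp488 differed in both cultures and little in fresh cells. Its log2 values in fresh cells were 6.32, 5.85 and 6.27 in control and 6.28, 6.52 and 6.08 in cKO libraries, which overlapped. In unstimulated cells they were 5.72, 5.29 and 5.41 against 6.34, 6.41 and 6.71, and in stimulated cells 5.55, 5.39 and 5.47 against 6.06, 6.01 and 6.12. Control values were lower in culture than in fresh cells, and the cKO values stayed near the fresh level. The differences were 0.14, 1.01 and 0.59 in fresh, unstimulated and stimulated cells, and the averaged difference was 0.58 ± 0.09 (SE; 1.5-fold, adjusted p = 0.0455, limma). The estimates had one sign, and the unstimulated exceeded the fresh difference by 0.87 (unadjusted 95% interval 0.40 to 1.33), while the limma F test between conditions gave an adjusted p of 0.378. Its call was lost in 21 of 32 alternative fits, where the difference ranged over all of them from 0.46 to 0.65. In 14 zinc-finger factors of the Sall and Prdm families, listed with these results known, 10 were tested, these 2 were called, and the median averaged difference was -0.02 against -0.0035 over all genes.

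**Figure D1:**
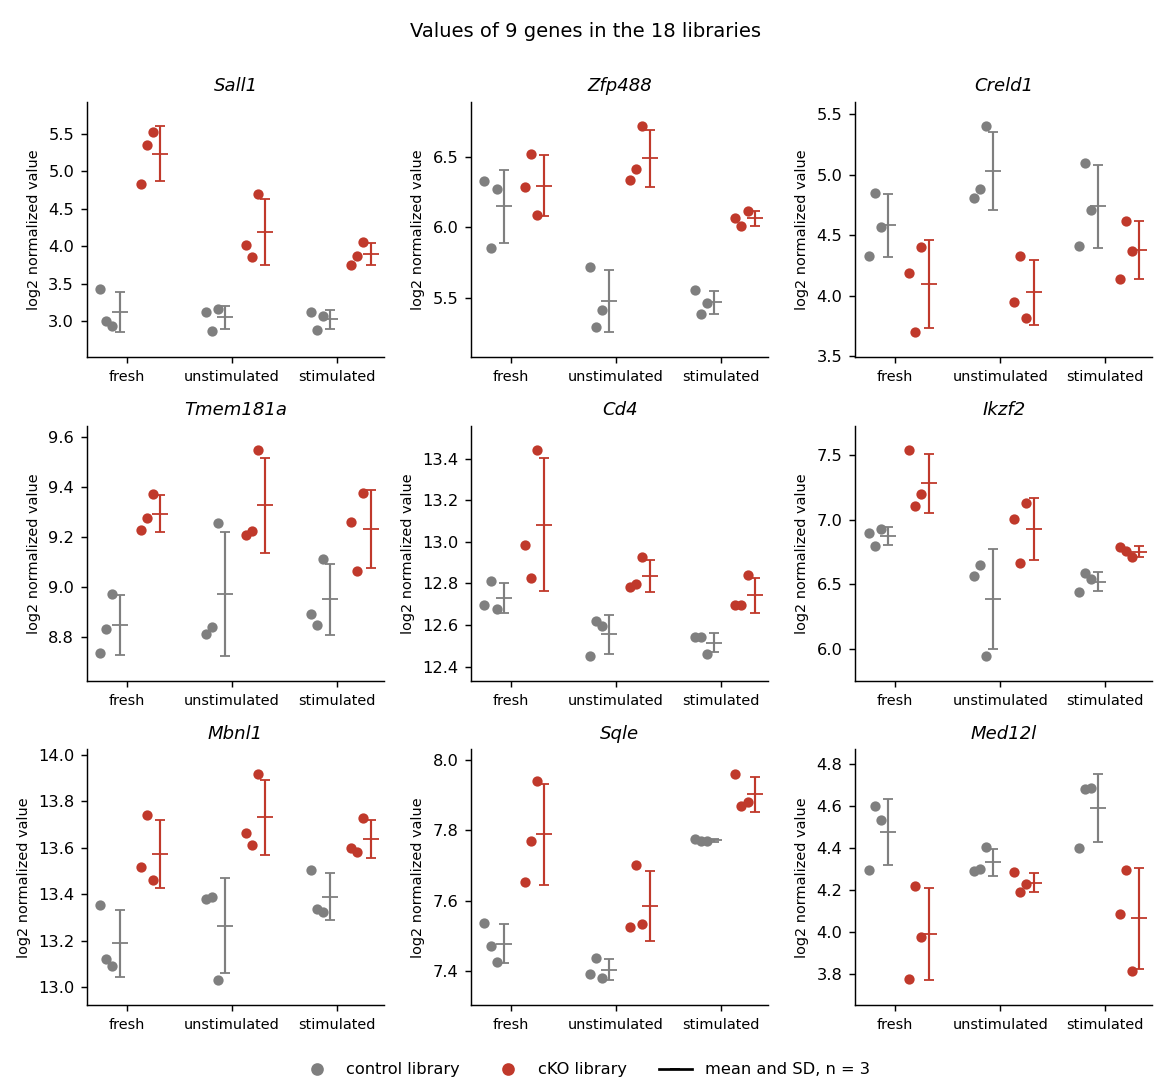
Log2 normalized values (y axis, a separate scale for each gene) of 9 genes in the 18 libraries, by condition (x axis). Grey points are control and red points cKO libraries, with the mean and SD of 3 libraries beside them. Sall1 is separated in all 3 conditions, Zfp488 only in the cultures, and Creld1 only in unstimulated cells.

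Differences of one sign and of at least 0.25 (1.19-fold) in each condition were found for 19 genes, 14 higher (0.129% of genes tested) and 5 lower (0.046%) in the cKO. This is a description with no test of its own. Of the 19, 1 (Sall1) passed the test of the averaged difference, 17 had an unadjusted p under 0.05, and adjusted p values of the other 18 ran from 0.117 to 0.463. In 12 of the 19 genes more than 63.0% of the squared deviation lay between the sets of a genotype and a run, a share that 10% of all genes exceed, and the median was 78.0%. With 1 value per genotype and run, adjusted p of the 19 ran from 0.272 to 0.653 (limma). In 10 of the 19 every cKO library lay on the same side of its control mean. Of 1083 genes with an averaged difference of at least 0.25 in size, the other 1064 fell short of that size, or changed sign, in at least 1 condition. Just inside the limit, the smallest of the 3 differences was 0.26 for Olfr981 and for Ttn and 0.28 for Ptger2. Just outside it, the size of the smallest difference was 0.249 for Mbnl1, 0.248 for Cd24a and 0.247 for Pfas.

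Of these 19, differences of like size (the largest at most 2 times the smallest) were seen in 15 genes, 11 higher (0.101%) and 4 lower (0.0368%). Those whose linear mean was 50 or more were Tmem181a, Dynlt1b, Zfp69, Il2ra, Cdk5rap1 and Slc15a2, all higher, and Synj2, lower. The share of squared deviation between the sets was 81.8% for Tmem181a, 81.0% for Dynlt1b, 84.2% for Zfp69 and for Synj2, and 21.7% for Il2ra. Where this share is high, agreement of the 3 conditions partly repeats the same sets. Tmem181a, a transmembrane protein gene, had log2 values of 8.74, 8.83 and 8.97 in control and 9.23, 9.28 and 9.37 in cKO fresh cells. In unstimulated cells they were 8.81, 8.84 and 9.26 against 9.21, 9.22 and 9.55, and in stimulated cells 8.89, 8.85 and 9.11 against 9.26, 9.06 and 9.37. The genotypes were separated in fresh cells and overlapped in both cultures through 1 control library each. The differences of 0.44, 0.36 and 0.28 (SE 0.13 each) averaged 0.36 ± 0.07 (adjusted p = 0.275, limma), and the stimulated difference was lower than the fresh one by 0.16 with an interval from 0.22 higher to 0.55 lower.

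Il2ra, the alpha chain of the interleukin-2 receptor (CD25, the protein against which the cells were sorted), was 1.29-fold higher on average. In fresh cells its log2 values were 6.21, 6.25 and 5.96 in control and 6.70, 6.53 and 6.27 in cKO libraries. In unstimulated cells they were 5.81, 5.93 and 6.11 against 5.98, 6.60 and 6.56, and in stimulated cells 6.64, 7.10 and 7.70 against 7.46, 7.31 and 7.64. The genotypes were separated in fresh cells and overlapped in both cultures. The differences were 0.36, 0.43 and 0.32, and the average of 0.37 ± 0.13 had an adjusted p of 0.463 (limma).

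Synj2, a phosphoinositide phosphatase of membrane traffic, was the 1 lower gene above that level. Its log2 values were 7.91, 8.18 and 7.76 in control and 7.75, 7.56 and 7.25 in cKO fresh cells. They were 8.33, 8.32 and 7.87 against 7.76, 7.71 and 6.79 in unstimulated and 8.24, 8.44 and 8.01 against 7.76, 8.21 and 7.22 in stimulated cells. The genotypes were separated in fresh and unstimulated cells and overlapped in stimulated cells. The differences of -0.43, -0.75 and -0.50 averaged -0.56 ± 0.15 (1.47-fold lower; adjusted p = 0.463).

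The remaining genes above that level were all higher in the cKO. Dynlt1b, a dynein light chain gene, had differences of 0.56, 0.46 and 0.40 in fresh, unstimulated and stimulated cells. In it 9 of 9 cKO libraries lay above their control mean, with 81.0% of its squared deviation between the sets. Cdk5rap1, which modifies mitochondrial tRNAs, had 0.52, 0.53 and 0.36, and the zinc-finger gene Zfp69 had 0.81, 0.47 and 0.50. In Cdk5rap1 and Zfp69, 7 of 9 cKO libraries lay on the side of the average: Zfp69 read 6.32, 4.85 and 6.19 in cKO fresh cells against 4.81, 5.02 and 5.10 in control. Cdk5rap1 was highest in cKO replicate 3 of every condition (7.83, 8.09 and 7.92), and 89.5% of its squared deviation lay between the sets. Slc15a2, a peptide transporter gene, had the largest differences of this group, 0.91, 1.00 and 0.52, and followed the sets most closely (97.8%). The 3 libraries of cKO replicate 1 read 7.49, 7.65 and 7.57, below every control library of their condition, while the other 6 cKO libraries read 9.47 to 10.66. Its unadjusted p was 0.102, and the average ran from 0.38 to 1.14 over the alternative fits.

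The other 12 genes of the 19 were below that level, and apart from Creld1 and Sall1 they are named here after their values were seen. Higher were the oxidases Fmo1 (0.73) and Cyp4x1 (0.50), the prostaglandin E2 receptor gene Ptger2 (0.37), the copine gene Cpne5 (0.36), Mtus1 (0.95), the olfactory receptor gene Olfr981 (0.37) and titin, Ttn (0.41), as averaged log2 differences. Lower were Daglb, a diacylglycerol lipase gene (-0.38), the scavenger receptor gene Dmbt1 (-0.36) and Lgr4, an R-spondin receptor gene (-0.47). None of these passed the test (limma, adjusted p from 0.117 for Cyp4x1 upward). Mtus1, Olfr981 and Lgr4 reached the minimum in 3, 6 and 3 libraries only, so they were near the level at which genes were left out. Mtus1 reached it in 0 control and 3 cKO libraries, and Lgr4 in 3 control and 0 cKO libraries. Each of these entered only through the genotype where it was higher. Olfr981 reached it in 2 control and 4 cKO libraries. The Mtus1 difference lay in the 3 libraries of cKO replicate 3 (4.25, 5.01 and 4.93), the other 6 cKO libraries read 1.97 to 2.78 and control libraries 1.87 to 2.63, and its average ran from 0.62 to 1.21 over the alternative fits. The Lgr4 difference lay in control replicate 2 (3.95, 4.15 and 3.77), with the other 6 control libraries at 2.48 to 2.96 and the cKO libraries at 2.42 to 2.94. For these genes the agreement of the 3 conditions repeats 1 set.

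**Figure D2:**
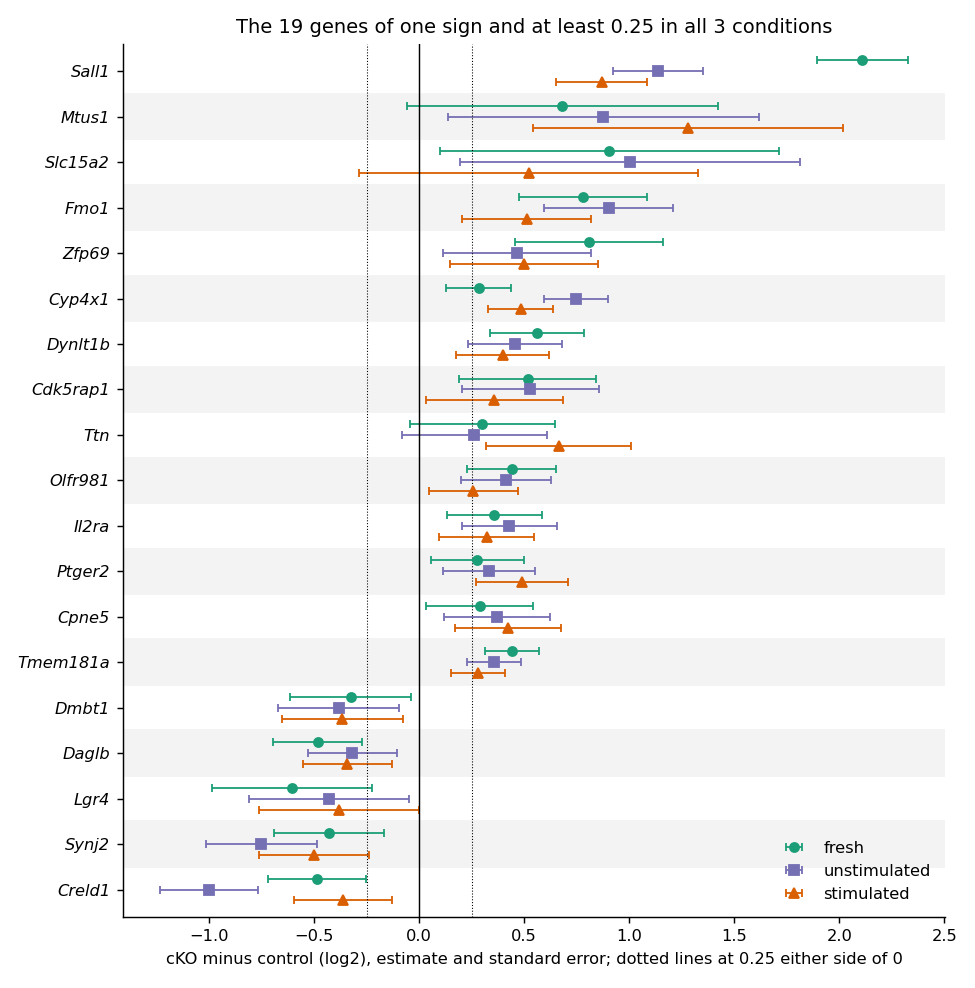
Difference of cKO minus control on the log2 scale (x axis) for the 19 genes of one sign and at least 0.25 in every condition (y axis), with the standard error of each condition's estimate. Circles are fresh, squares unstimulated and triangles stimulated cells. The fresh estimate of Sall1, 2.11, lies beyond all the others.

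For no gene of the 19 did the test of a difference between conditions pass (smallest adjusted p = 0.378, limma F test), and the intervals were wide: the stimulated minus fresh difference ran from -0.71 to 0.64 for Il2ra, from -0.86 to 0.72 for Synj2 and from -0.83 to 0.51 for Dynlt1b. At this spread (median SE 0.14 for a difference in 1 condition and 0.08 for the average), equal size in the 3 conditions is not shown.

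A separation that does not rest on the estimated spread gave a partly different list. In 5 genes all 3 cKO libraries lay above all 3 control libraries in each condition (0.046%), and in 1 gene they lay below (0.00919%). The higher genes were Sall1, Mbnl1, a splicing regulator, Cd4, the co-receptor by which the cells were sorted, Sqle, the squalene epoxidase of cholesterol synthesis, and Ikzf2, which encodes the Ikaros-family factor Helios. The lower gene was Med12l, of the kinase module of Mediator. With libraries shifted to a common median 3 of the 6 remained separated, and 4 did after quantile normalization. Beside Sall1, none passed the test of the averaged difference (adjusted p from 0.127 to 0.463).

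Cd4 values in fresh cells were 12.70, 12.81 and 12.68 in control and 12.98, 12.82 and 13.44 in cKO libraries. In unstimulated cells they were 12.45, 12.62 and 12.60 against 12.78, 12.80 and 12.93, and in stimulated cells 12.54, 12.54 and 12.46 against 12.70, 12.70 and 12.84. The gap was narrow in fresh cells, where 1 cKO library lay 0.01 above the highest control, and wider in both cultures. The differences were 0.35, 0.28 and 0.23, and the average was 0.29 ± 0.07 (1.22-fold; adjusted p = 0.448, limma). With each library's GC slope in the model the average was 0.37 with an adjusted p of 0.00181. Cd4 lies 11.4 Mb from Creld1 on chromosome 6, and its 8 nearest tested neighbours had averaged differences from -0.29 to 0.12, with none under an unadjusted p of 0.05.

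Ikzf2 read 6.90, 6.80 and 6.93 in control and 7.54, 7.11 and 7.20 in cKO fresh cells. It read 6.57, 6.65 and 5.94 against 7.01, 6.66 and 7.13 in unstimulated and 6.44, 6.59 and 6.54 against 6.79, 6.76 and 6.71 in stimulated cells. All 3 conditions were separated, by 0.02 in unstimulated cells. The differences of 0.41, 0.55 and 0.23 averaged 0.39 ± 0.10 (1.31-fold).

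Mbnl1 differed by 0.39, 0.47 and 0.25 in fresh, unstimulated and stimulated cells (average 0.37 ± 0.07, adjusted p = 0.127). Sqle differed by 0.31, 0.18 and 0.13, and Med12l by -0.49, -0.10 and -0.52. In unstimulated cells the Med12l groups lay only 0.0082 apart. For Sqle and Med12l the sign was shared, and the size was 2.38 and 5.40 times as large in one condition as in another. With each library's GC slope in the model, the averaged difference was 0.30 for Mbnl1, 0.23 for Sqle, 0.36 for Ikzf2 and -0.35 for Med12l.

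Among the 19 genes, 3 lie together. The 19 are spread over 11 chromosomes, 4 of them on chromosome 17, which holds 5.21% of genes tested, and the only 3 pairs with starts within 1 Mb of each other are those of Synj2 (start 5941280), Tmem181a (6256860) and Dynlt1b (6430112) in GRCm38. Synj2 was lower and the other two higher. Among the 12 tested genes within 500 kb of the Tmem181a start the difference was not common to all: Dynlt1c, 345 kb from it, averaged 0.18 ± 0.07, Dynlt1f -0.14 ± 0.09 and Dynlt1a 0.15 ± 0.15. The Dynlt1 genes are near-identical copies, so how their reads were shared out is uncertain. The 8 tested neighbours of Creld1 had averaged differences from -0.17 to 0.15, none with an unadjusted p under 0.05, and the 4 nearest to Sall1 from -0.08 to 0.10.

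**Figure D3:**
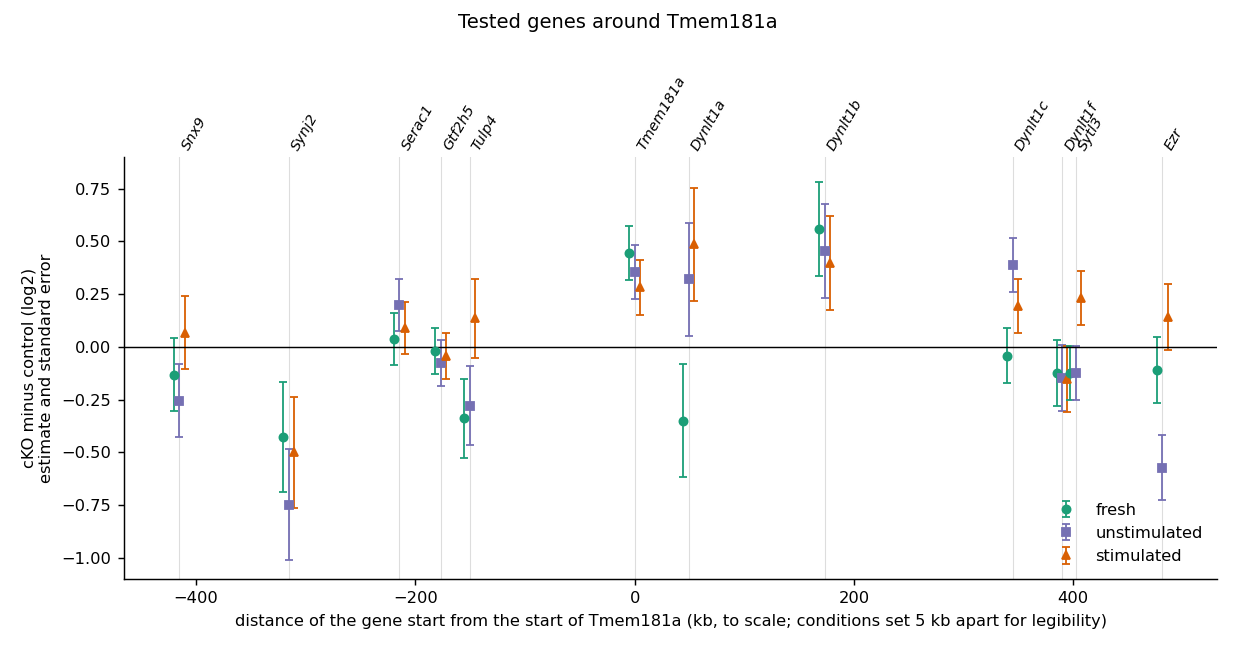
Difference of cKO minus control on the log2 scale (y axis, estimate and standard error) of tested genes by the distance of their start from that of Tmem181a in kb (x axis). Circles are fresh, squares unstimulated and triangles stimulated cells. Tmem181a and Dynlt1b are above 0 and Synj2 below 0 in all 3 conditions, and neighbours between them lie on both sides of 0.

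Over all genes, differences in fresh and unstimulated cells resembled each other and those in stimulated cells ran the other way. Across genes, which are not independent replicates, the differences correlated with r = 0.63 between fresh and unstimulated, -0.41 between fresh and stimulated and -0.61 between unstimulated and stimulated cells. One sign in all 3 conditions was seen in 1676 genes (15.4%), 952 higher and 724 lower. The differences also followed transcript GC content, with r = -0.57 in fresh, -0.72 in unstimulated and 0.55 in stimulated cells. With each library's GC slope in the model, the 3 correlations between conditions were 0.03, 0.08 and -0.02, and the share of one sign was 24.3%. In that fit 15 of the 19 genes kept one sign and at least 0.25. The other GC correction, a smooth curve on GC content (GC spline) removed from each library, left correlations of 0.36, -0.12 and -0.34. The share of one sign was then 21.0%, so the pattern between conditions depended on how GC content was handled. The part of GC slope in single differences was not tested.

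**Figure D4:**
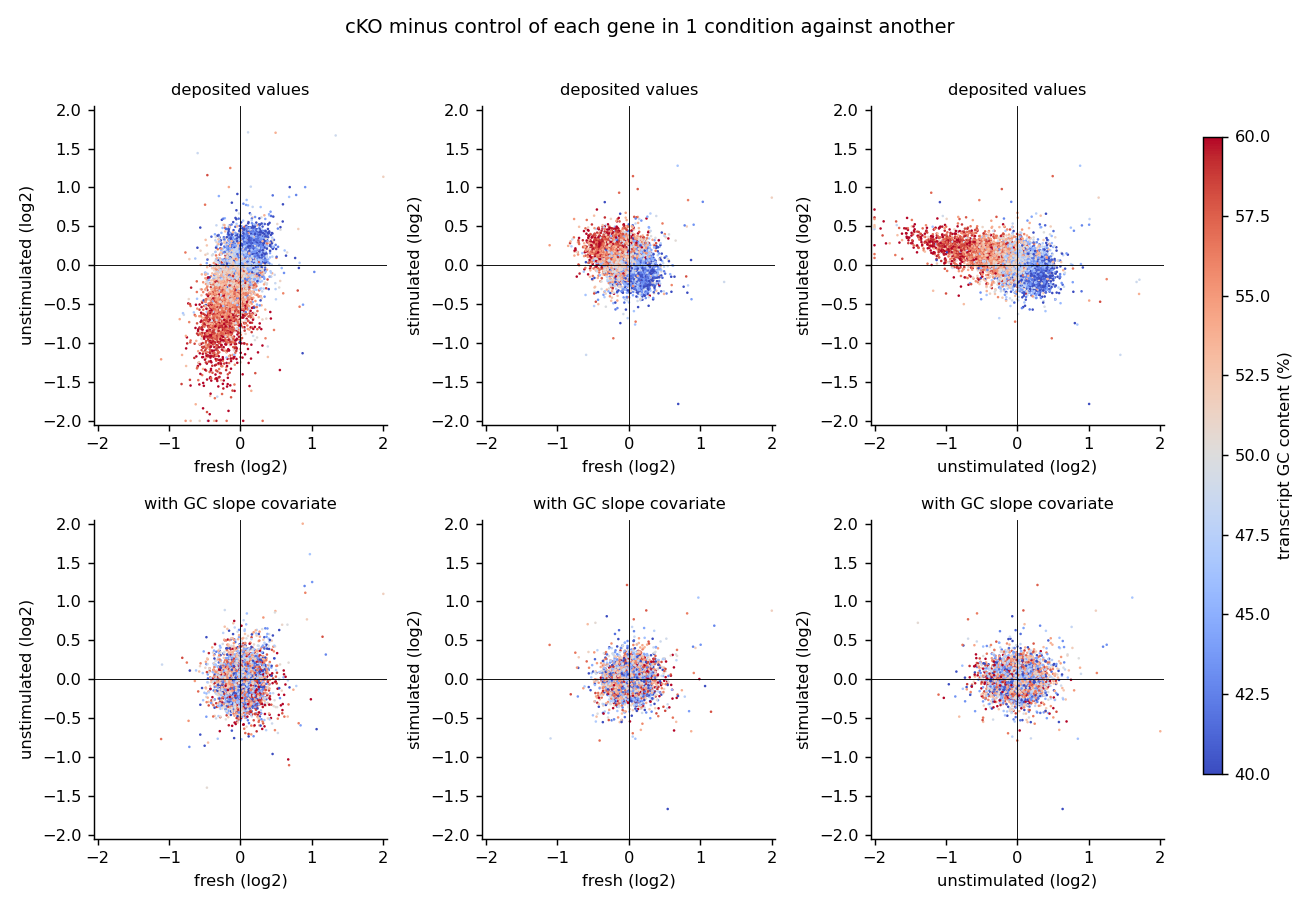
Difference of cKO minus control (log2) of each gene with a GC content in 1 condition (x axis) against another (y axis), from the deposited values (top) and with each library's GC slope in the model (bottom). Each point is a gene coloured by transcript GC content, and values beyond 2 are drawn at 2. The tilted clouds of the top row, with r = 0.63, -0.41 and -0.61, are round in the bottom row. With a GC spline removed instead, which is not drawn, r was 0.36, -0.12 and -0.34.

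The GC slope term also changed which averaged differences passed. There were 9 called genes, all higher in the cKO (0.0827%): Sall1, Zfp488, Cd4, Mbnl1, Tmem181a, Ahnak, a large scaffold protein gene (0.33), Slc38a6, an amino acid transporter gene (0.21), Slfn5, of the interferon-inducible Schlafen family (0.19), and Sgip1, an endocytic adaptor gene (0.48). The last 4 were named from this fit after its values were seen. In the deposited values these 4 averaged 0.39, 0.29, 0.24 and 0.30 with adjusted p from 0.117 to 0.463, and Slfn5 differed by 0.38, 0.31 and 0.03 in the 3 conditions.

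Differences of opposite sign were seen in Acot4, a peroxisomal acyl-CoA thioesterase gene and the 1 gene past the test of a difference between conditions (0.00919%; adjusted p = 0.0114, limma F test). Its log2 values were 4.77, 4.62 and 4.68 in control and 4.87, 4.63 and 4.83 in cKO fresh cells, which overlapped. In unstimulated cells the cKO was higher, with 5.40, 5.34 and 5.50 against 4.46, 4.86 and 4.41, and in stimulated cells it was lower, with 4.46, 4.31 and 4.41 against 5.17, 5.29 and 5.00. The differences of 0.09, 0.84 and -0.76 averaged 0.05 ± 0.08, so the average says nothing of either. The call was lost in 8 of 29 alternative fits, among them 7 of the 18 that leave out 1 library.

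Gene lists, chosen with results of these data known, were described by their counts and medians. Apart from the 2 zinc-finger genes, no member of the 21 lists was called. By sign alone, in 27 genes of the naive and quiescent state 1 was higher and 3 lower in all 3 conditions (15.4% of all genes had one sign), and the median averaged difference was -0.04. The transcription factor Lef1 had -0.17, -0.38 and -0.02 in fresh, unstimulated and stimulated cells (average -0.19 ± 0.05), and the lymph node homing receptor Ccr7 -0.29, -0.39 and 0.07. In 22 tested memory and effector genes, 7 were higher and 1 lower in all conditions, with a median of 0.06: the interleukin-18 receptor gene Il18r1 averaged 0.24 ± 0.08 and S100a11, a calcium-binding protein gene, 0.13 ± 0.05, both with 9 of 9 cKO libraries on that side.

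Of 12 regulatory T cell genes tested, 4 were higher and 2 lower in all conditions and the median was -0.03. With GC slope in the model the median was 0.10, with 0.11, 0.11 and 0.10 in fresh, unstimulated and stimulated cells, so its sign turned. By gene and in the deposited values, beside Ikzf2 and Il2ra, Ctla4, an inhibitory receptor gene, averaged -0.17 ± 0.06, and Foxp3, the factor that defines the lineage, 0.11 ± 0.09. In 29 genes of the T cell receptor complex and its proximal signalling 1 was higher and 1 lower in all conditions, and the zeta chain gene Cd247 averaged -0.19 ± 0.06 beside Cd4. In 35 genes of calcium entry, calcineurin and NFAT the median was 0.01, and 2 were higher and 1 lower in all conditions. The kinase gene Gsk3b averaged 0.18 ± 0.07, but its sign changed (0.24, 0.37 and -0.07 by condition). The calcium pump gene Atp2b1 averaged 0.17 ± 0.07 (0.20, 0.29 and 0.008). With GC slope in the model these averages were 0.10 and 0.09. The next members by p, Nfatc3 and Homer3, averaged 0.12 ± 0.06 and -0.28 ± 0.14. In 30 Wnt and beta-catenin genes the median was -0.02, and Wls, needed for Wnt secretion, averaged 0.28 ± 0.07 (0.30, 0.41 and 0.12 by condition).

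In unstimulated cells the largest medians were those of 2 lists with few genes of one sign. Cytosolic ribosomal protein genes (62 tested, median GC content 51.7% against 49.2% over all genes) had medians of -0.09, -0.48 and 0.11 in fresh, unstimulated and stimulated cells, with 3 higher and 3 lower in all conditions: Rpl18 had -0.76, -1.29 and 0.18. Genes encoded in mitochondria (13, median GC content 37.1%) had 0.17, 0.35 and -0.16, none of one sign, and mt-Co1 had 0.19, 0.32 and -0.15. Beside these, the median of the averaged difference with GC slope in the model was -0.002 for the ribosomal and -0.06 for the mitochondrial list, against -0.17 and 0.12 without it. Glycolysis genes (26) had medians of -0.09, -0.32 and 0.06, and their averaged median was -0.12, or -0.03 with GC slope in the model. The median was above 0 in all 3 conditions for 3 lists, memory and effector genes, cell death and survival genes (30 tested; 0.04, 0.07 and 0.06) and myeloid markers (5 tested), and below 0 in all 3 for B cell markers (4 tested). Within the cell death list the death adaptor gene Fadd averaged -0.16 ± 0.06.

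**Figure D5:**
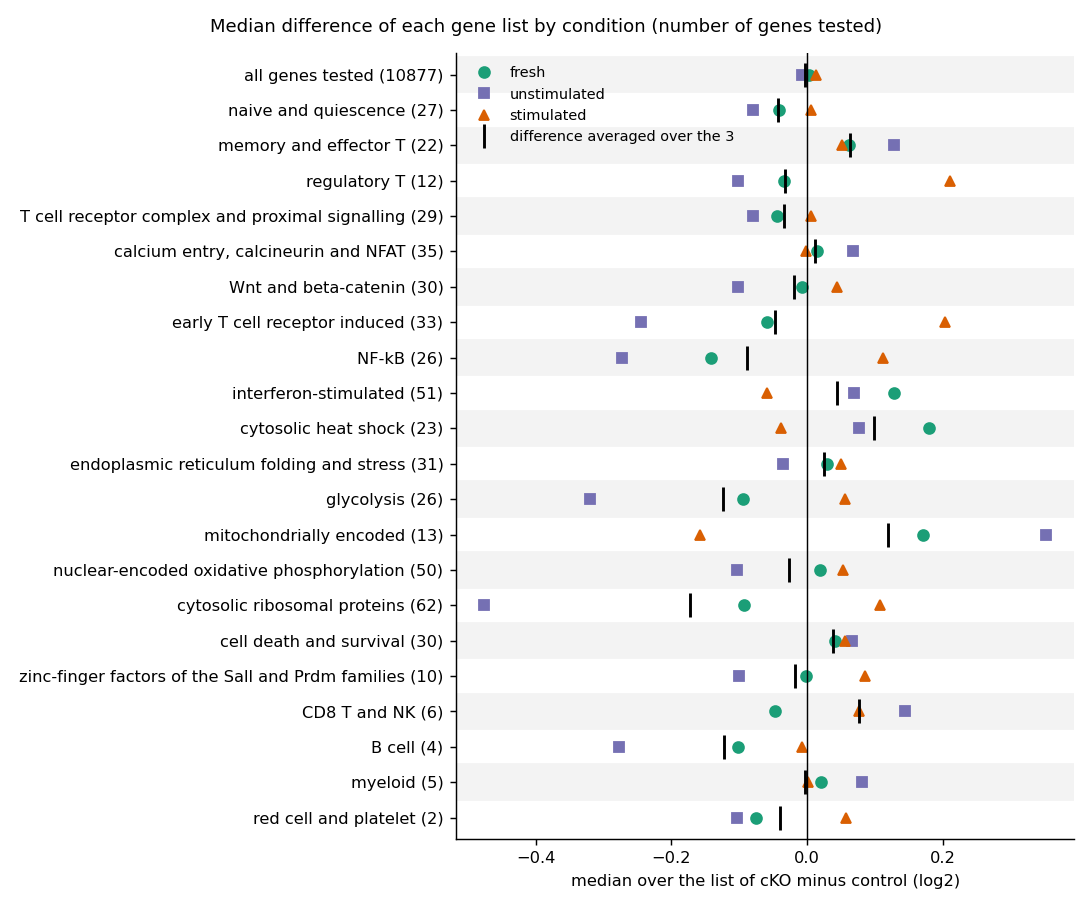
Median over each list of the cKO minus control difference on the log2 scale (x axis), by list with its number of tested genes (y axis). Circles are fresh, squares unstimulated and triangles stimulated cells, and the black bar is the median of the difference averaged over conditions. Cytosolic ribosomal protein genes reach -0.48 and mitochondrially encoded genes 0.35 in unstimulated cells, each with the other sign in stimulated cells.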

How the data were processed

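RNA-seq libraries of 6 groups of 3 were analysed, grouped by the titles in the labels. The deposited table holds log2 normalized values per gene made by the authors, from -1.36 to 17.2. The submitters' processing notes name CASAVA 1.8, HISAT2 2.1.0, SAMtools 1.4, Partek 6.6, DESeq2 and mm10, with no role or order. The library kit does not mark strand, so overlapping antisense genes cannot be told apart. From these values limma 3.58.1 (R 4.3.3) was fitted with 6 group means and trended empirical Bayes moderation, with 12 residual degrees of freedom. The contrast was the mean over conditions of cKO minus control, and p-values were adjusted by Benjamini-Hochberg over all genes tested. Differences between conditions were tested by limma's moderated F. Library measures were tested by exact permutation within conditions (smallest possible p 0.00025). Annotation came from GENCODE M21 (GRCm38), which matched 15031 symbols, and GC content was known for 99.3% of tested genes.

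The members, gene lists and limits were chosen with earlier results of these data known. Named genes were Creld1, those past a test, those of like size with a linear mean of 50 or more, those separated in every condition, the 5 of smallest p for a difference between conditions, and the first members of each list by p. The fit of 9 libraries a side recovered known changes in simulated data whose libraries scattered independently. That simulation held no GC slope of single libraries and no sets of a genotype and run. It does not show how the fit behaves with either. Alternatives covered minimum, scaling, pseudocount, moderation, weights, GC content, a replicate block and each library left out. Checks without the pair of fresh libraries apart in GC slope, and a fit of 1 value per genotype and run of library numbers (3 a side), were added after seeing the data.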

Additional observations from a re-analysis of the deposited data

Results flagged for a closer look

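Acot4 differed between conditions by the limma F test (adjusted p = 0.0114), with cKO minus control differences of 0.84 in unstimulated and -0.76 in stimulated cells.

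Atg4c, an autophagy protease gene, was higher in all 3 cKO than in all 3 control libraries of fresh cells and lower in culture. The differences were 0.88, -0.51 and -0.44 in fresh, unstimulated and stimulated cells, and the F test gave an adjusted p of 0.17. The clone-named gene Gm26602 had differences of -0.14, -1.21 and 0.93 and an adjusted p of 0.378, with separated libraries of opposite sign in the cultures. Neither passed the test over all genes, and both had a mean near the minimum (3.14 and 3.22 on the log2 scale).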

How the results depend on the processing

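The call of Sall1 was kept in 30 of 31 alternatives that tested the gene, with averaged differences from 1.01 to 1.44, and was lost with 1 value per genotype and run (adjusted p = 0.272, limma), where the number of samples falls to 3 a side. The minimum of 50 does not test it. The number of genes past the test of the averaged difference, 2, was 1 with no minimum, quantile normalization, median-centred libraries or an additive model, and 0 with 1 value per genotype and run or with a minimum of 50, where in the latter 765 genes had an unadjusted p under 0.05. It was 7 with the replicate block (6 higher, 1 lower), 9 with the GC slope covariate, 11 with that covariate and the replicate block, and 6 with a GC spline removed. It was 5173 with library weights (2404 higher, 2769 lower), of which 20.5% had one sign in all conditions, and 4026 without the pair of fresh libraries apart in GC slope (1677 higher, 2349 lower), of which 15.6% did. Leaving out 1 library gave 1 to 1613, the highest without cKO fresh replicate 3 (427 higher, 1186 lower, 18.7% of one sign) and 4 without control fresh replicate 1. The cause was not tested.

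The 1 gene past the test between conditions became 2 with no minimum, 0 with a minimum of 50 or the GC slope covariate with the replicate block, 6397 with library weights and 3370 without that pair of libraries, and 0 to 1 with 1 library left out. The 19 genes of one sign and at least 0.25 became 8 with a minimum of 50, 100 at a limit of 0.15, 6 at 0.4 and 31 without that pair, and 13 to 44 with 1 library left out (44 without control stimulated replicate 1, 30 without cKO stimulated replicate 2). The 15 of like size became 8 with a minimum of 50 and 5 at a ratio of 1.5, and 10 to 33 with 1 library left out. The 6 separated genes became 3 with median-centred libraries and 19 without that pair, and 6 to 17 with 1 library left out, which asks less of each gene. The highest were 17 without control stimulated replicate 1 and 15 without cKO fresh replicate 3.

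With 1 library left out, the Creld1 difference ran from -0.67 to -0.55, the GC slope from -0.15 to -0.068, the mitochondrially encoded share from 0.19 to 0.617 percentage points, the share of the 50 highest genes from 0.252 to 0.787 and the ribosomal share from -0.572 to -0.262. Of 63 named genes followed through the alternative runs, 61 kept their sign in every one. The exceptions were mt-Co1, at -0.0396 with the GC slope covariate and -0.0506 with the block added, and Arl10, whose stimulated minus unstimulated difference was -0.32 with a GC spline removed. The replicate block rests on runs of library numbers that the labels do not tie to a shared animal or day. Deviations of same-numbered libraries correlated from -0.68 to 0.69 over 45 pairs (median 0.134 against -0.0671 for other numbers), 25 of them over 0.1, and 11 of 18 libraries correlated best with their own number. Within a genotype, with GC slope removed, the median was 0.0528 over 18 same-numbered pairs and -0.0215 over 36 others. Between genotypes the median over 27 same-numbered pairs was 0.353 in the deposited values and -0.0211 with GC slope removed.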

Other observations

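Interferon-stimulated genes (51 tested) had medians of 0.13 in fresh, 0.07 in unstimulated and -0.06 in stimulated cells, and 6 were higher and 3 lower in the cKO in all conditions. Oas2, a sensor of double-stranded RNA, averaged 0.18 ± 0.06 with 9 of 9 cKO libraries on that side. Cytosolic heat shock genes (23) had medians of 0.18, 0.08 and -0.04, and the chaperone gene Hsph1 averaged 0.18 ± 0.07 with 0.28, 0.16 and 0.11 by condition. With GC slope in the model the averaged medians of these lists were 0.01 and 0.04. NF-kB genes (26) had medians of -0.14, -0.27 and 0.11, and Bcl3, a nuclear co-regulator of NF-kB, averaged -0.40 ± 0.14. With GC slope in the model the averaged median of the NF-kB list was -0.005, against -0.09 without it, and Bcl3 averaged -0.26. The activator protein gene Fosl2 averaged -0.22 ± 0.08, with -0.31, -0.37 and 0.01 by condition. None of these passed the test over all genes (adjusted p = 0.463 for each named, limma).

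Some genes not called in the deposited-value fit passed in several related fits. Some of these fits called many genes: 5173 with library weights, 1613 without cKO fresh replicate 3 and 4026 without both fresh libraries apart in GC slope. A call in those fits therefore says little of a single gene. The replicate block called 7 genes, the GC slope covariate 9 and both together 11. Without control stimulated replicate 1 there were 2. Synj2 passed with library weights, the replicate block (-0.56, adjusted p = 0.0388, limma), that block with the GC slope covariate (-0.46, adjusted p = 0.0164), without cKO fresh replicate 3 and without both fresh libraries apart in GC slope. Tmem181a passed in the same 5 fits and with the GC slope covariate alone (0.39, adjusted p = 0.0397). Adam19, a membrane metalloprotease gene, passed with library weights (-0.45, adjusted p = 0.000752), without cKO fresh replicate 3, without both of those fresh libraries and without control stimulated replicate 1 (-0.47, adjusted p = 0.00943), where it differed by -0.51, -0.44 and -0.45 in fresh, unstimulated and stimulated cells. With 1 value per genotype and run, the adjusted p was 0.647 for each of the 3.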
